A study of Mus musculus with 28 samples.

Results

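CTLL2 cells exposed for 4 h to exosomes from B16F0 melanoma cells were compared with untreated CTLL2 cells harvested at the same time, across all genes. The comparison uses 6 of the 28 RNA sequencing libraries of the series, 3 exosome-treated and 3 untreated, chosen by the treatment and time in their titles. CTLL2 is a mouse cytotoxic T-cell line, labelled with the strain C57BL/6, that grows on interleukin-2. All cells were kept in complete medium for 24 h before they received fresh medium at 0 h. Treated cells received that medium with B16F0 exosomes, brought in PBS, at 0.2 mg/ml. The untreated cells are labelled as unstimulated, and cells given PBS alone or vesicles of another source were not analysed here. The other 22 libraries cover untreated cells at 0, 0.5, 2 and 8 h and treated cells at 0.5, 2 and 8 h. The series design calls the replicates biological, and all come from 1 cell line, so the p-values describe variation between cultures of that line.

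Exosomes are small vesicles of endosomal origin that cells release with RNA, proteins and lipids of the donor cell, and other cells can bind them or take them up. B16F0 cells are pigmented mouse melanoma cells, and melanocytes and many melanomas express enzymes of melanin synthesis that T cells do not need. In T cells, signals from cytokine receptors of the tumour necrosis factor family and from the antigen receptor act through NF-kB, a family of paired transcription factors held back by IkB proteins, and NF-kB in turn raises the transcripts of its own inhibitors. RNA carried by the exosomes and RNA made by the CTLL2 cells were not measured apart here. In bulk libraries a transcript held by few cells and a low level in all cells cannot be told apart.

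Depth at 4 h ran from 13399840 recovered reads in exosome-treated replicate 3 to 24085812 in exosome-treated replicate 2. Replicate 2 of both groups is in batch 1 of the sample descriptions, and replicates 1 and 3 of both groups are in batch 2, so that batch 1 holds 1 library per group. The cells carried their T-cell label in both groups. Cd3e stood between 2437 and 3975 normalized read counts, Thy1 between 20831 and 22841 and Prf1, which encodes perforin, between 17608 and 36467. Cd5 and Cd6 lay between 0 and 2.58 in the 6 libraries. Several libraries stood apart from the rest of their group. In untreated replicate 1 only 15.7% of the listed genes had a value of 0, against 27.8% to 35.2% in the other 5 libraries, and 8349 genes were at 1 to 3 reads against 4486 to 5054. The predicted gene Gm10800 stood at 8350 normalized counts in untreated replicate 1, at 1334 in untreated replicate 3 and at 10.1 to 56.4 in the other 4 libraries. It was chosen after its values were seen. In exosome-treated replicates 1 and 2, but not in replicate 3, transcripts of skeletal muscle were present at levels given below.

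At 4 h, 23 of the 14828 genes tested were called with limma (Benjamini-Hochberg adjusted p below 0.05), which is 0.155% of them. All 23 were higher in treated cells and 0 were lower, while an unadjusted p below 0.05 was reached by 645 genes (4.35%), of which 269 (1.81%) had the lower level in treated cells. Among the 23, 22 are transcripts that untreated cells held at a mean below 10 normalized counts, 14 of them below 1. The remaining gene, Wsb2, is expressed by CTLL2 cells. Of the 47 genes tested with an untreated mean below 1, 14 were called, against 8 of 1088 between 1 and 10, 0 of 3608 between 10 and 100 and 1 of 10085 at 100 or more. Such low genes pass the filter on low values (10 or more normalized counts in at least 3 of the 28 libraries) only through libraries where they are high, so these counts describe where the calls lie and support no trend. The 3 treated libraries lay above the 3 untreated ones for all 23 genes. As the genes were called from these same libraries, this adds no support. With the 4 h libraries alone and the batch term, limma called 2 of the 14828 genes, each of them among the 23. With the replicate number as a block in place of the batch term in these libraries, limma called 15 genes, 11 of them among the 23. The 12 that lost their call there were Enho, Gpr137b, Cdc42ep1, Sox11, Dok5, Hmgn1, Wtip, Ets1, Slc6a15, Lbh, Syt4 and Tmem56 (limma adjusted p from 0.0503 for Gpr137b to 0.235 for Tmem56), and each kept its direction. Over all genes tested, the groups did not overlap for 3.11% with treated cells higher and for 2.53% with treated cells lower.

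**Figure D1:**
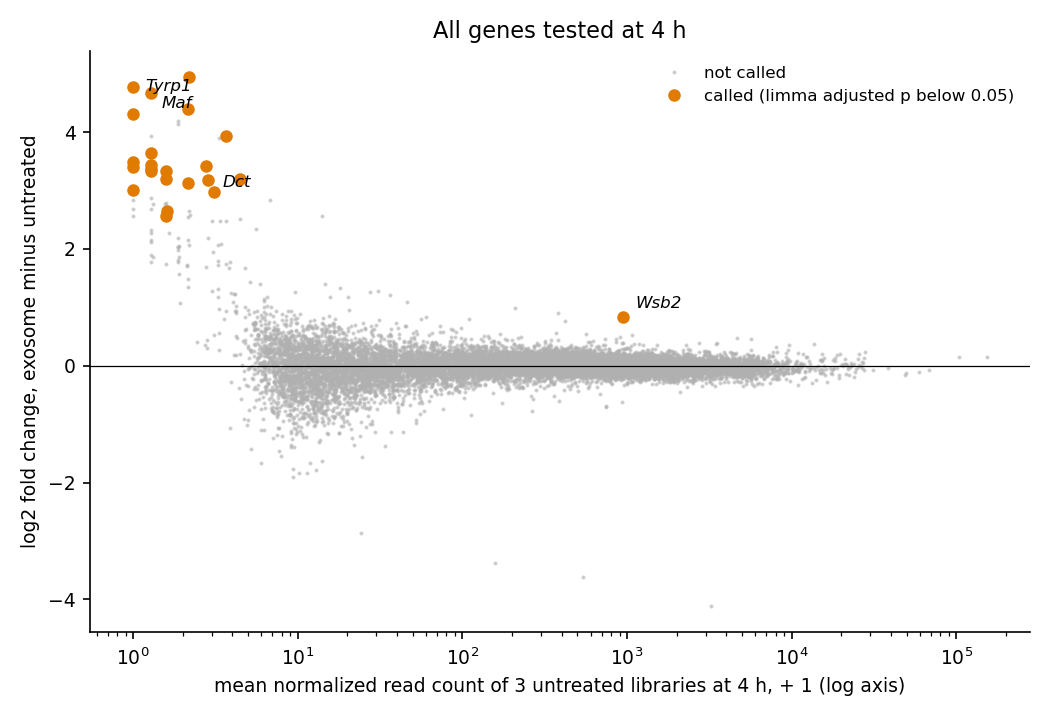
Mean normalized read count of the 3 untreated libraries at 4 h, plus 1 (horizontal log axis), against the log2 fold change on the log2(normalized count + 1) scale (vertical axis), 1 point per gene tested. The 23 called genes are orange: 22 sit at the left edge, below an untreated mean of 10, and Wsb2 lies alone at 937 normalized counts.

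Transcripts of pigment cells were among the 22. Tyrp1 encodes an enzyme of melanin synthesis. The gene, ENSMUSG00000005994.14, spans 80834123 to 80851719 of chromosome 4 in GRCm38. It had 0 reads in the 3 untreated libraries and stood at 37.7, 13.2 and 36.0 normalized counts in treated replicates 1, 2 and 3. All 3 treated libraries held it, the batch 1 library at the lowest level. Set against 3 reads for the whole untreated group, the limit that a count of 0 allows, it was at least 29.6-fold higher, from 95 treated reads, with a limma adjusted p of 8.82e-07. Dct (chromosome 14 from 118012790 to 118052244) encodes dopachrome tautomerase, which acts in the same pathway. Its values were 1.72, 0.849 and 2.92 in untreated replicates 1, 2 and 3 and 20.6, 27.6 and 22.5 in treated ones. The treated values were close to each other and clear of the untreated ones, with a log2 fold change of 3.17 ± 0.40 (limma standard error, adjusted p = 1.24e-04). Fold changes here are differences of log2(normalized count + 1), and their size depends on the 1 count added wherever the untreated level is near 0.

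Of the 20 melanocyte and melanoma transcripts listed, 11 were tested and 2, Tyrp1 and Dct, were called, where 0.155% of all genes were. The median log2 fold change of the 11 was 0.40, against 0.00 over all genes tested. Members low in untreated cells pass the filter only through libraries where they are high, so this share and median support no trend. Mitf, the transcription factor of the melanocyte lineage, stood at 0.861, 0 and 0 in untreated cells and at 4.49, 3.76 and 7.87 in treated cells (adjusted p = 0.0747 with limma). Trpm1, a cation channel gene of melanocytes, was at 5.17, 0 and 1.95 against 19.7, 8.78 and 14.6 (adjusted p = 0.182 with limma). Both sets of libraries were apart, though neither gene was called. Mlana and Slc45a2 were left out by the filter on low values. Mlana had 0 reads in untreated cells and 5.38, 6.27 and 2.25 normalized counts in treated replicates 1, 2 and 3, and Slc45a2, a transporter of the pigment granule, had 0 reads and 8.07, 7.52 and 10.1. Not every pigment-cell gene was higher. Pmel, which encodes the fibril protein of the pigment granule, stood at 10.3, 9.34 and 3.90 in untreated and 5.38, 17.6 and 10.1 in treated libraries, which overlap. Tyr, the rate-limiting enzyme of melanin synthesis, was at most 2.58 in any library. Gpr143 was at 0 in every library but treated replicate 2. Kit, Bace2 and Rab27a, listed here but also expressed by the T cells, stood at 1277 to 1703, 512 to 799 and 2852 to 3188 in the 6 libraries, with no separation of the groups. The summed level of the 20 genes, most of it from these expressed members, was 5161 to 5757 in untreated and 4900 to 5683 in treated libraries.

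The promoters of Tyrp1 and Dct each hold the 7-letter core of the M-box, the element through which MITF is known to drive pigment genes, and they are shown because these genes carry the pigment-cell part of the result. Both stretches are read 5′ to 3′ on the gene's strand from RefSeq promoters on GRCm38.p6, from the 250 bases before the annotated start, with the match to TCATGTG or its reverse complement in capitals. Dct has another match in those bases that is not shown. The Tyrp1 stretch lies before the RefSeq start but after the GENCODE gene start given above, and overlaps an annotated GENCODE exon.
Tyrp1, chr4:80834155-80834184, plus strand: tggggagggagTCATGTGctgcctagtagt
Dct, chr14:118052437-118052496, minus strand: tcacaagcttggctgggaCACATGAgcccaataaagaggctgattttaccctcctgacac
A match on either strand occurred in 3.25% of all 32851 promoters of the table and, counted by gene, in 2.49% of the tested genes that had a promoter there. Of the 22 called genes low in untreated cells, 11 had promoters in the table, and Tyrp1 and Dct were the ones that held the core. Within the melanocyte list, 5 of 9 genes with a promoter held it, Mc1r, Slc24a5 and Trpm1 being the others. The letters were searched for with the results known, and a match describes the sequence, not a bound site.

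The other called genes are ordered here by what they encode, which is not a tested grouping, and regulators of transcription and RNA come first. Maf, a basic leucine zipper transcription factor gene on chromosome 8, was at 0.861, 0 and 0 in untreated and at 10.8, 72.7 and 33.7 in treated libraries. It was lowest in treated replicate 1 and highest in replicate 2, so the size of its change differs between libraries (log2 fold change 4.66 ± 0.62, limma adjusted p = 1.73e-04). From 1 untreated and 158 treated reads the ratio was 148 (95% counting interval 26.1 to 5872). Sox11, a transcription factor gene of neural and neural crest development, stood at 0.861, 0 and 0 against 11.7, 8.15 and 16.9 (adjusted p = 8.40e-04 with limma). Ets1, a transcription factor gene of lymphoid and other cells, was at 10.3, 0 and 0 against 21.5, 21.9 and 15.7. Here untreated replicate 1 lay nearest to the treated libraries, and the call was lost in 5 of the 6 fits that left out 1 library of the comparison, all but that without untreated replicate 1 (limma adjusted p = 0.0437 with all libraries, up to 0.681 without one). Lbh, a transcription cofactor gene, was at 4.31, 0 and 1.95 against 19.7, 23.8 and 13.5, and its call was lost in the same 5 fits. Rbfox2, which encodes a splicing regulator, stood at 3.44, 0.849 and 0.974 against 35.9, 13.8 and 36.0 (log2 fold change 3.43 ± 0.57, limma adjusted p = 0.00285). Peg10, an imprinted gene derived from a retrotransposon, was at 0.861, 0 and 0 against 12.6, 13.2 and 18. Hmgn1, a nucleosome-binding protein gene with near-identical copies in the genome, was at 0.861, 0 and 0 against 13.5, 8.78 and 12.4, and how the authors counted reads shared with such copies is not given in the sources used here.

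Called genes that encode receptors, adaptors and cytoskeletal proteins follow. Ryk, a gene for a Wnt receptor related to tyrosine kinases, stood at 3.44, 0 and 0 in untreated and at 41.3, 15.7 and 57.4 in treated libraries (log2 fold change 4.39 ± 0.60, limma adjusted p = 2.55e-04). It was the 1 called member among 15 tested genes of the Wnt pathway list, whose median was -0.04, where 0.155% of all genes were called. Sh3pxd2a, a scaffold gene of podosomes and invadopodia, was at 6.03, 0 and 1.95 against 36.8, 46.4 and 40.5, with the treated libraries close together (3.94 ± 0.60, adjusted p = 8.40e-04 with limma). It was the 1 called member among 18 tested podosome and invadopodium genes, whose median was -0.03, against the same 0.155% of all genes. Ryk and Sh3pxd2a are low in untreated cells and pass the filter only through libraries where they are high, so these counts support no trend. Dst, a cytoskeletal linker gene of the podosome and invadopodium list, was at 13.8, 1.70 and 1.95 against 46.6, 23.8 and 34.9. Its groups did not overlap and it was not called (adjusted p = 0.172 with limma), but it was with the replicate number as a block (adjusted p = 0.0136 with limma). Cdc42ep1, an effector gene of the GTPase CDC42, had 0 untreated reads and stood at 12.6, 5.02 and 13.5, at least 10.6-fold above the floor of 3 reads over the group. Wtip, which encodes a LIM domain protein of cell junctions, was at 1.72, 0 and 0 against 12.6, 10.7 and 12.4. Dok5, an adaptor gene of receptor tyrosine kinases, was at 1.72, 0 and 0 against 5.38, 55.8 and 6.75. Most of its signal came from treated replicate 2, and the call was lost without treated replicate 2 or 3 or untreated replicate 2 or 3 (limma adjusted p = 0.0280 with all libraries and 0.0575 to 0.376 without one of these).

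The other called genes low in untreated cells have various roles. 5031439G07Rik (chromosome 15 from 84943936 to 84988551) had the largest fitted change of all genes, at 2.58, 0 and 0.974 in untreated and 67.3, 42.0 and 68.6 in treated libraries (4.94 ± 0.45, limma adjusted p = 8.82e-07). Rnf144a, a ubiquitin ligase gene, had 0 untreated reads and stood at 26.0, 8.15 and 30.4, at least 21.5-fold above the same floor. Enho, which encodes the peptide adropin, had 0 untreated reads and stood at 12.6, 6.90 and 12.4, at least 11.2-fold above it. Slc6a15, a neutral amino acid transporter gene, likewise went from 0 reads to 11.7, 3.14 and 9.0, at least 8.10-fold above it, and lost its call without treated replicate 1. In Rnf144a, Enho and Slc6a15 the treated library of batch 1 was the lowest. Fkbp9, a prolyl isomerase gene of the endoplasmic reticulum, stood at 2.58, 0.849 and 0 against 18.8, 16.9 and 11.2. Gpr137b, a lysosomal membrane protein gene that has an annotated pseudogene, was at 0.861, 0 and 0 against 15.2, 10.03 and 12.4, and its call was lost in each of the 6 fits without 1 library. Tmem56 was at 1.72, 0 and 0 against 8.97, 7.52 and 5.62 and lost its call in 5 of them, all but that without untreated replicate 1, and Syt4, a synaptotagmin gene, at 0.861, 0 and 0.974 against 12.6, 5.64 and 9.0 and lost it without treated replicate 1, treated replicate 3 or untreated replicate 2.

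**Figure D2:**
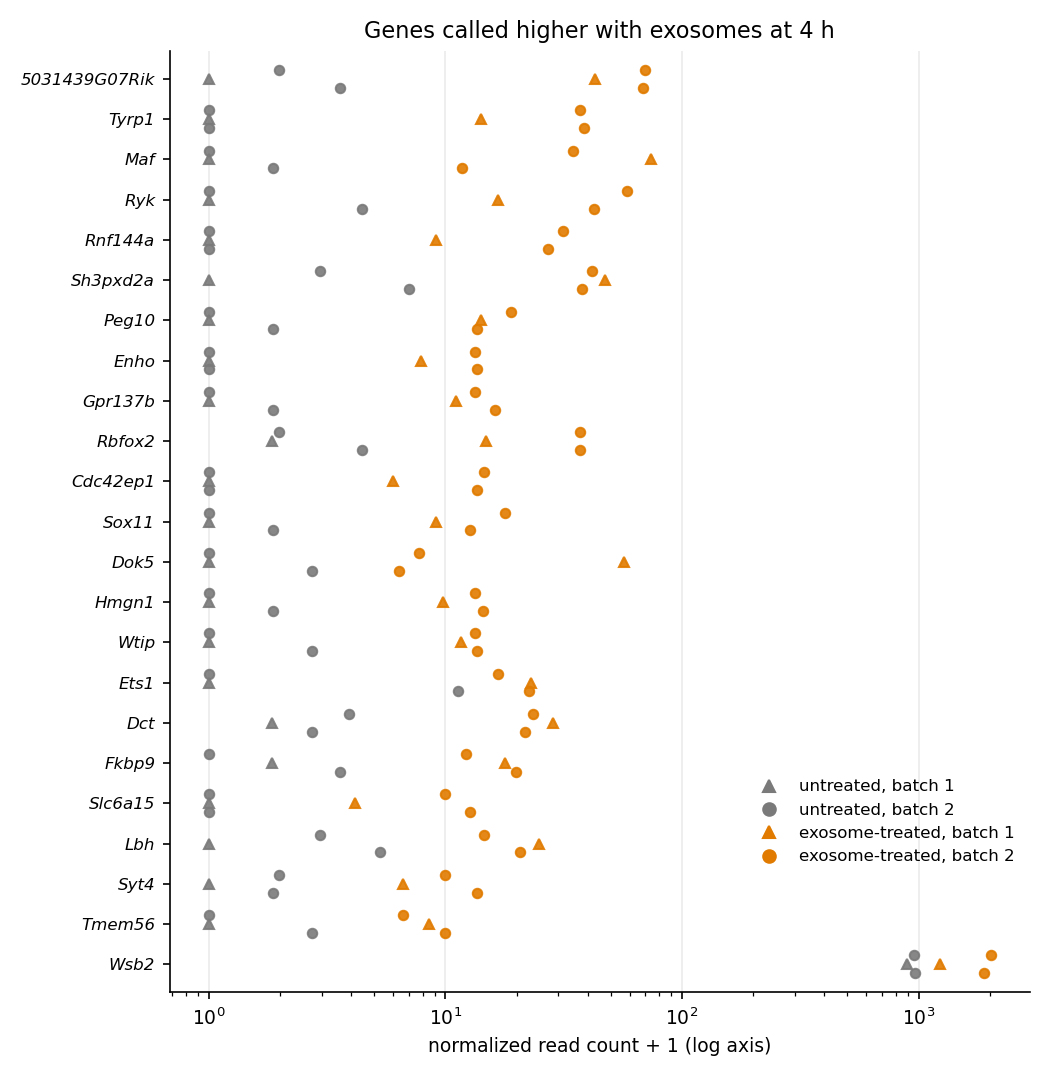
Normalized read count plus 1 (horizontal log axis) of the 23 genes called at 4 h, with a point for each library. Grey is untreated, orange is exosome-treated, a triangle is batch 1 and a circle batch 2. Treated points lie to the right of untreated ones in every row, and Ets1 has 1 untreated library (replicate 1, 10.3 normalized counts) near the treated ones.

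Together the 22 genes made up little of the RNA. Their summed level was 465.5, 437.0 and 493.8 normalized counts in treated replicates 1, 2 and 3, which is 0.00314%, 0.00289% and 0.00328% of the library, and 44.8, 2.55 and 9.74 in untreated replicates 1, 2 and 3. The 3 treated libraries held similar totals although single genes, such as Maf and Dok5, differed severalfold among them. The 22 were called as higher in these same libraries, so their presence in each was favoured by the choice. A set of 43 genes, called at the other times and low in untreated cells there, was chosen without 4 h libraries. These summed to 737, 589 and 763 in treated replicates 1, 2 and 3 and to 172, 40.8 and 49.7 in untreated ones. Each of the 3 treated libraries was the highest for some of the 22 genes (9, 6 and 7 genes for replicates 1, 2 and 3). Untreated replicate 1, the library with few genes at 0, held most of the untreated signal. Per kilobase of exon, the highest treated means were those of Dok5 (12.8 normalized counts per kilobase) and Tyrp1 (10.2). The Dok5 mean rests mostly on treated replicate 2, at 55.8 normalized counts against 5.38 and 6.75 in treated replicates 1 and 3. The 23 genes lie on 17 chromosomes, and all are protein coding, against 78.1% of the genes tested.

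Wsb2 was the one called gene that untreated CTLL2 cells express. It encodes a WD repeat protein with a SOCS box, the motif through which such adaptors bind ubiquitin ligases, and lies on chromosome 5 from 117357304 to 117378601. Untreated libraries stood at 962, 896 and 954 normalized counts and treated ones at 1891, 1235 and 2017. The batch 1 treated library lay between the untreated libraries and the other treated ones. The log2 fold change was 0.84 ± 0.16 (limma adjusted p = 0.0215), 1.03 ± 0.09 within batch 2 and 0.46 ± 0.12 within batch 1. Its call was lost in 4 of the 6 fits without 1 library, those without replicate 1 or 3 of either group (adjusted p up to 0.210 with limma), and when genes low in untreated cells were left out of the test. It held with edgeR (adjusted p = 0.0184), with DESeq2 (adjusted p = 6.29e-04) and with the replicate number as a block (adjusted p = 0.00839 with limma). An annotated pseudogene of Wsb2 exists, and its share of these reads is not known. Among the 22 tested genes of WD repeat and SOCS box adaptors, Wsb2 was the 1 called member, where 0.155% of all genes were called. The median of the 22 was 0.07.

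Cmtm4, whose protein is known to stabilise PD-L1 at the cell surface, had a pattern like that of Wsb2. It stood at 370, 347 and 426 normalized counts in untreated and 840, 450 and 954 in treated replicates 1, 2 and 3. The groups did not overlap, with the batch 1 treated library closest to the untreated ones. It was not called (0.91 ± 0.24, limma adjusted p = 0.318), but it was within batch 2 alone (1.17, adjusted p = 2.05e-05 with limma) and with the replicate number as a block (adjusted p = 0.0191 with limma). Cd274, which encodes PD-L1, was at 199, 234 and 195 against 114, 218 and 173, with overlapping groups and no call. C9orf72, involved in autophagy and membrane traffic, was at 219, 214 and 244 against 377, 313 and 269 (0.49 ± 0.12, adjusted p = 0.172 with limma and 0.0246 with DESeq2). Lmna, the gene for lamin A and C of the nuclear envelope, was at 781, 1305 and 766 against 1026, 1422 and 977, and Ralgds, an exchange factor gene for Ral GTPases, at 360, 597 and 377 against 537, 581 and 503. Neither was called, and their groups overlap.

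Several genes of the NF-kB pathway stood higher in treated libraries of batch 2 and not in that of batch 1. Nfkbia encodes IkB-alpha, the inhibitor that NF-kB itself induces, and lies on chromosome 12 from 55489410 to 55492647. It stood at 431, 412 and 409 normalized counts in untreated replicates 1, 2 and 3 and at 985, 370 and 973 in treated ones. Both treated libraries of batch 2 lay above every untreated library, and the treated library of batch 1 was the lowest of the 6. Over both batches it was not called (0.76 ± 0.23, limma adjusted p = 0.679). Within batch 2 the log2 fold change was 1.22 ± 0.08 (adjusted p = 9.89e-07 with limma) and within batch 1 it was -0.15 ± 0.12. That fit, with a mean for each group and batch, called 37 genes in batch 2 (0.25%) and 7 in batch 1 (0.0472%). The difference between batches was itself called (1.37 ± 0.15, limma adjusted p = 6.18e-04). Relb, the subunit of the non-canonical arm, was at 208, 199 and 216 against 641, 181 and 595, with 1.54 ± 0.13 in batch 2, -0.13 ± 0.19 in batch 1 and a called difference (1.67 ± 0.23, adjusted p = 0.0111 with limma). These were the 2 genes called for that difference, 0.0135% of those tested. The test assumes that batch 1, with 1 library per group, varies like batch 2. Whether batch 1 as such or its 1 treated library at 4 h stands apart was not tested. Batch 1 also holds treated and untreated libraries at 0.5, 2 and 8 h, whose effects on these genes are not given here.

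**Figure D3:**
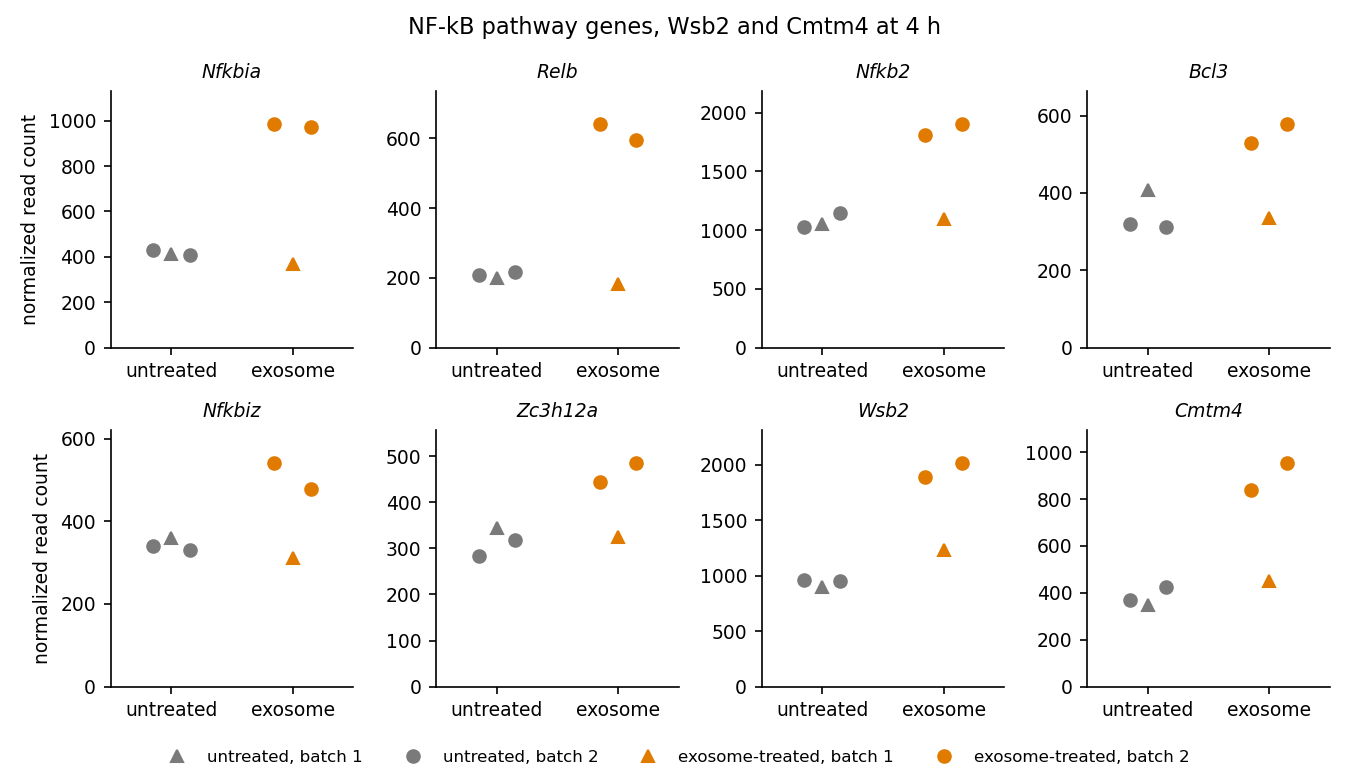
Normalized read counts (vertical axes, linear, from 0) of 6 NF-kB pathway genes and of Wsb2 and Cmtm4 at 4 h, 1 point per library, with exosome-treated libraries in orange and untreated ones in grey. Circles are batch 2 and triangles batch 1. In the 6 NF-kB panels the treated triangle lies among the untreated points or below them, below for Nfkbia at 370. For Wsb2 and Cmtm4 it lies above them.

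Other members of the family had the same layout. Nfkb2, the partner of RelB, stood at 1027, 1055 and 1143 against 1813, 1091 and 1902. Its change over both batches was 0.53 ± 0.12 (limma adjusted p = 0.0758), which edgeR (adjusted p = 0.0485) and DESeq2 (adjusted p = 0.00948) called. Bcl3, an atypical IkB gene, was at 319, 407 and 311 against 530, 334 and 578, and Nfkbiz, which encodes another, at 340, 360 and 330 against 541, 312 and 479. In both genes the batch 1 treated library lay within or below the untreated range. Tnfaip3, which encodes the feedback inhibitor A20, was at 15.5, 104 and 15.6 against 50.2, 95.9 and 54.0, so that its level differs more between batches than between groups. Zc3h12a, an RNase gene that limits inflammatory transcripts, was at 282, 343 and 319 against 444, 324 and 485. The subunit genes Rela (971 to 1205 over the 6 libraries), Rel (892 to 1088) and Nfkb1 (6274 to 6761) and the kinase genes Ikbkb and Chuk showed no such separation, with log2 fold changes between -0.07 and 0.07.

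As lists, 0 of 17 tested NF-kB subunits and IkB genes and 0 of 27 tested NF-kB targets were called over both batches, where 0.155% of all genes were. 7 of the former and 12 of the latter had an unadjusted p below 0.05 with treated cells higher, against 2.54% of all genes, and 0 were lower at that p. The lists share members. Their medians were 0.18 and 0.19, against 0.00 over all genes. In the fit of batch 2 libraries alone, 39 genes were called (0.263% of those tested), 36 of them higher, and 5 of the 17 and 8 of the 27 were among these. The median of the targets was 0.30 within batch 2 and -0.05 within batch 1. Besides those described, Traf1, Ikbke, Junb, an AP-1 factor gene, and Sqstm1, an autophagy receptor gene, were called in batch 2 alone. Icam1, an adhesion molecule gene, was at 920, 931 and 1027 against 1192, 914 and 1207 and was not (adjusted p = 0.0563 with limma). Tnf, which encodes an inducer of NF-kB and is also its target, was at 127, 132 and 129 in untreated and 201, 167 and 168 in treated libraries. Its groups did not overlap, and it was not called (0.46 ± 0.13, limma adjusted p = 0.511).

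Promoter letters of 3 of these genes are shown because they hold a kB motif, the kind of element that NF-kB binds. The motif searched was GGG, any 2 bases, TT, any base and CC, on either strand, in the 250 bases before the RefSeq start on GRCm38.p6, and matches are in capitals on the gene's strand.
Nfkbia, chr12:55492648-55492707, minus strand: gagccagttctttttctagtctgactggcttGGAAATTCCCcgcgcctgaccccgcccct
Nfkb2, chr19:46304688-46304717, plus strand: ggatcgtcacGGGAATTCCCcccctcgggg
Tnfaip3, chr10:19015411-19015470, minus strand: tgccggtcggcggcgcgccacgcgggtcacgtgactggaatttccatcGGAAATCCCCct
The motif was found in 4.11% of all promoters of the table and, counted by gene, in 5.79% of the tested genes that had a promoter there. Of the 27 NF-kB targets tested, 24 had a promoter there and 9 held it, and of the 11 low called genes with a promoter 0 did. Targets were listed as such from general knowledge, part of which rests on promoter motifs, so this share is a description. Matches can overlap, and Nfkb2 has further ones in its promoters. The Nfkb2 stretch overlaps an annotated GENCODE exon.

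Transcripts of skeletal muscle were high in 2 of the 3 treated libraries. Acta1, the actin gene of skeletal muscle, was at 3.44, 2.55 and 0.974 normalized counts in untreated replicates 1, 2 and 3 and at 415, 75.2 and 2.25 in treated ones. Myh4, a fast myosin gene, was at 2.58, 0 and 0 against 631, 119 and 0. Of the 24 genes of the muscle list, 22 were tested and 0 were called, where 0.155% of all genes were. The median log2 fold change of the 22 was 2.31, carried by treated replicates 1 and 2, against 0.00 over all genes tested. Members low in untreated cells pass the filter only through libraries where they are high, so this median supports no trend. The summed level of the 24 genes was 1951 to 2937 in untreated and 1751 to 6231 in treated libraries. The 15 of them that untreated libraries held at a low level summed to 39.6, 22.9 and 20.5 in untreated replicates 1, 2 and 3 and to 2571, 465 and 14.6 in treated ones, where 0, 1 and 12 of the 15 were at 0 reads. Treated replicate 3, in which muscle transcripts were at the untreated level, held the 22 called low genes at 493.8 and Nfkbia at 973. Treated replicate 2, with muscle transcripts, held the 22 genes at 437.0 and Nfkbia at 370. The 22 genes were called as higher in these treated libraries, so their presence in each was favoured by the choice. With treated replicates 1 and 2 left out, 16 genes were called, 9 higher and 7 lower, 8 of them among the 23. With untreated replicate 1 left out as well, 11 were called, 6 higher and 5 lower, 6 of them among the 23. All 23 genes kept a positive log2 fold change in both fits.

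**Figure D4:**
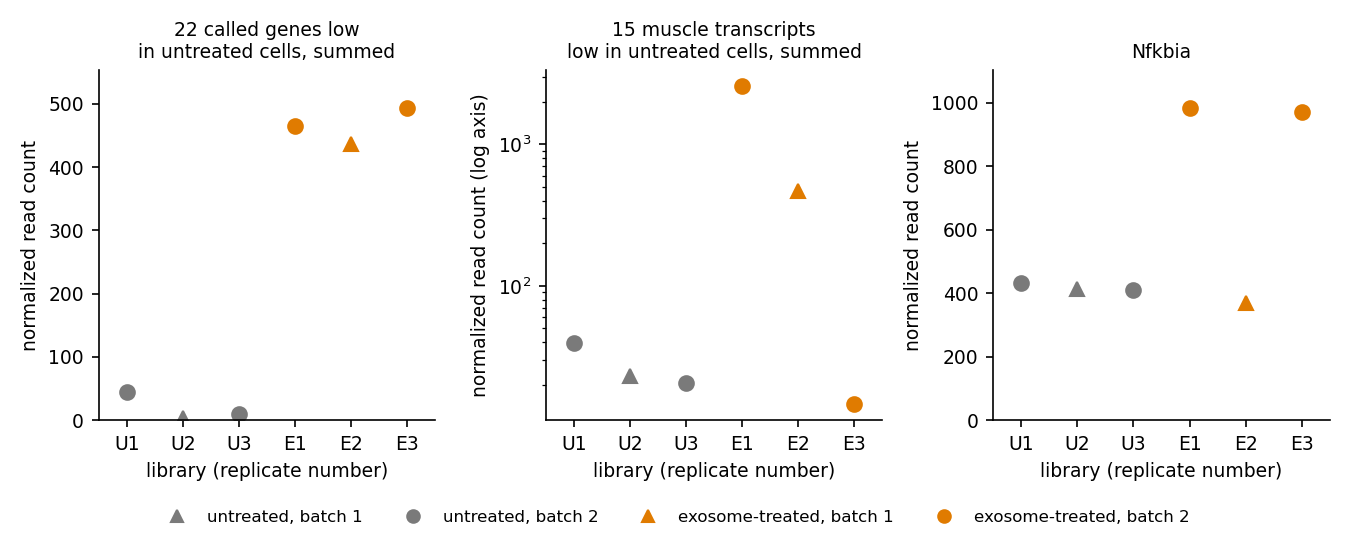
Normalized read counts by library at 4 h (U, untreated; E, exosome-treated; number, replicate) of the 22 called low genes summed (left, linear from 0), of 15 muscle transcripts summed (middle, log axis) and of Nfkbia (right, linear from 0). The first signal is high in E1, E2 and E3 (437 to 494), the second in E1 and E2 (2571 and 465), and the third in E1 and E3 (985 and 973). The 22 genes were called as higher in these treated libraries, so the first signal was favoured by the choice.

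Genes of T-cell function gave no call at 4 h. Of 20 tested genes of T-cell identity and the antigen receptor, 0 were called (0.155% over all genes), 0 had an unadjusted p below 0.05 (4.35% over all genes) and the median was 0.04. In lists of this size such counts are near the share over all genes. Of 20 tested cytotoxic effector genes 0 were called as well, with 0 at that p and a median of 0.09. Of 8 tested effector cytokine and chemokine genes 0 were called, and the median was 0.22. At that p, 2 of the 8 were higher in treated cells (2.54% over all genes) and 0 lower. Gzmb, which encodes granzyme B, stood at 38063, 39728 and 36781 in untreated and 37568, 41169 and 33592 in treated libraries (-0.03 ± 0.09, limma adjusted p = 0.963). Ifng, the interferon-gamma gene, was at 49.1, 60.3 and 75.0 against 77.1, 58.9 and 61.9 (0.11 ± 0.20). In both genes the groups overlap. Il12rb2, a chain of the interleukin-12 receptor, had a log2 fold change of -0.08 ± 0.13 and Ptpn11, which encodes the phosphatase SHP2, of -0.03 ± 0.06. Il2ra, the high-affinity chain of the interleukin-2 receptor, had -0.12 ± 0.10. Myc stood at 2461, 1400 and 2725 against 2317, 1104 and 2513 and was lower in treated cells in each replicate number without a call (-0.18 ± 0.07, adjusted p = 0.920 with limma). These values bound the size of a change seen here and do not show that the genes were unaffected.

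The other lists tested gave 0 called members, where 0.155% of all genes were called. Their medians lay between -0.17 and 0.22, except for the erythroid (-0.47) and epithelial (-1.39) marker lists, which had 1 tested gene each. Immediate early genes (33 tested) had 5 members higher and 2 lower at an unadjusted p below 0.05 (2.54% and 1.81% over all genes), with a median of 0.05, and 1 of them, Junb, was called in batch 2 alone. The BCL-2 family (12 tested, median 0.08), replication-dependent histones (19, 0.16) and p53 targets (24, 0.07) each had 3 members higher and 0 lower at that p. Interferon-stimulated genes (21 tested, median 0.03), genes of G1/S and DNA replication (38, 0.04), of G2/M (33, 0.01), of glycolysis and hypoxia (33, 0.05), of sterol and fatty acid synthesis (31, -0.04) and of oxidative phosphorylation (39, 0.07) centred near 0. Markers of other cell types were mostly below the filter. Of 18 macrophage and dendritic cell markers 3 were tested, of 12 B-cell markers 4 and of 18 fibroblast and matrix markers 10, with medians of 0.05, -0.17 and 0.08.

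Over both batches, with all 28 libraries and the filter on low values, limma called no gene lower. Without that filter it called 5 of 30608 genes lower. Ifi206, an interferon-inducible gene with close relatives in its cluster, was at 31.0, 9.34 and 28.3 in untreated and 9.87, 5.64 and 10.1 in treated libraries. It was not called (-1.20 ± 0.26, limma adjusted p = 0.0747) but edgeR called it (adjusted p = 0.0260). Cdkn2b, which encodes the cell-cycle inhibitor p15, was at 60.3, 45.0 and 58.5 against 26.9, 29.5 and 33.7. All treated libraries were below all untreated ones, and the gene was called lower in batch 2 alone (-0.95, adjusted p = 0.00897 with limma) and not over both batches (-0.83 ± 0.20, adjusted p = 0.182). Among genes at 100 or more normalized counts, those with the smallest p on the lower side included Rab11b-ps2 (-0.41 ± 0.11), Rpl28-ps1 (-0.34 ± 0.10), Med18 (-0.35 ± 0.12), Dnah8 (-0.28 ± 0.10), Ssc5d (-0.41 ± 0.14), Lrp1b (-0.45 ± 0.16) and Pfn1 (-0.24 ± 0.09). None was called, and the first 2 are pseudogenes whose reads may be shared with their parent genes.

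The 4 h values were set beside the other times. A fit of the 22 other libraries, without any from 4 h, called 59 genes for the mean exosome effect at 0.5, 2 and 8 h (0.402% of 14691), all higher, and the 23 genes called at 4 h were all among them. At 4 h all 59 had a log2 fold change above 0 (50.6% over all genes), 47 were higher with an unadjusted p below 0.05 (2.54% over all genes), and for 38 the groups did not overlap (3.11% over all genes). Their median was 2.19 at 4 h and 2.69 at the other times. That the same genes stand out at other times was known when the comparison was chosen. The test of the difference between the 4 h effect and the mean of the other 3 called 0 genes with limma (955 had an unadjusted p below 0.05). For the 23 genes this difference ran from -1.02 for Syt4 to 0.55 for Dct, was above 0 for 7 of them and had an unadjusted p below 0.05 for 0. Mical3, a cytoskeletal oxidase gene, was called at the other times (2.32) and had 0.09 at 4 h, and this difference did not pass the test over all genes.

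**Figure D5:**
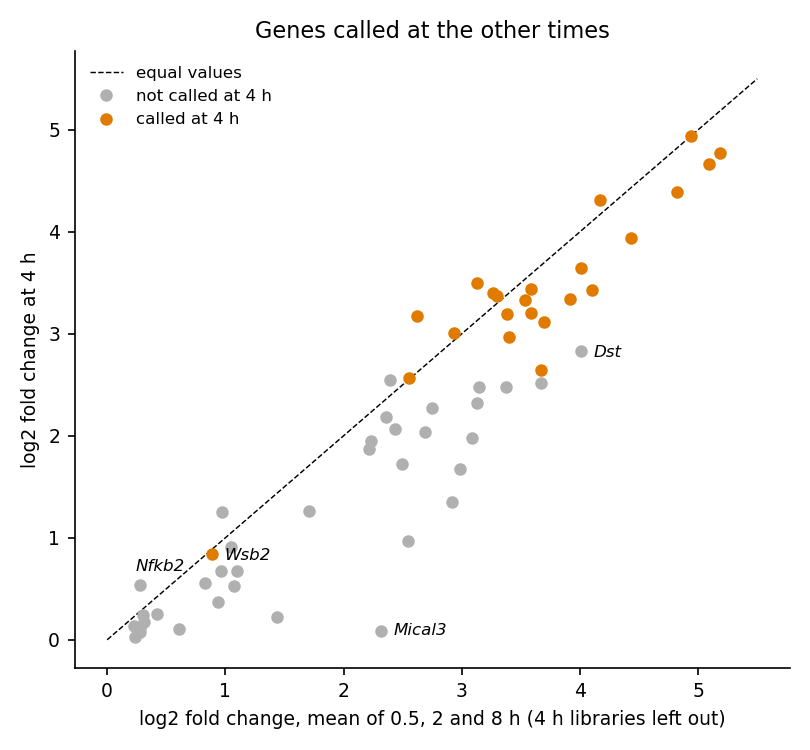
Log2 fold change with exosomes as the mean of 0.5, 2 and 8 h, from a fit without the 4 h libraries (horizontal axis), against that at 4 h (vertical axis) for the 59 genes called at the other times, with genes called at 4 h in orange and a dashed line at equal values. The medians are 2.69 at the other times and 2.19 at 4 h. Points lie on both sides of the line, Dct above it at 3.17 against 2.63 and Dst below it at 2.83 against 4.01.

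Within batch 2 the exosome effect on Nfkbia was -0.04 at 0.5 h, 0.52 at 2 h, 1.22 at 4 h and 1.06 at 8 h. The 4 h effect exceeded the mean of the other times by 0.71 ± 0.10 (limma adjusted p = 0.0214), the 1 gene called for that difference (0.00674% of those tested). This test was added to those planned, and the effect at 8 h was the nearest to that at 4 h. Relb had 0.28, 0.12, 1.54 and 1.40 at 0.5, 2, 4 and 8 h and Nfkb2 0.08, 0.12, 0.78 and 0.78, and for neither was the difference of 4 h from the mean called (adjusted p = 0.0920 and 0.137 with limma). Wsb2 had 1.47, 0.91, 1.03 and 1.01 and Cmtm4 1.73, 1.29, 1.17 and 1.16. In both of these the value was highest at 0.5 h, which was not tested as a difference between times.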

How the data were processed

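The deposited values are a normalized signal. Tools named in the submitters' processing notes, without settings or order, are STAR 2.4.2, DESeq2, CASAVA 1.8.4, R 3.3.2 and featureCounts 1.5.0, with the build GRCm38.p2. Within a library every value is a whole multiple of 1 step (100% within 0.01 read), so the authors' values are reads scaled by 1 factor per library, and dividing by the step gave back the reads. How reads mapping to several places or to either strand were handled was not given in those notes. TRIzol RNA with an integrity number above 8 went into TruSeq libraries, per the labels' protocols.

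Of 30608 gene IDs, 30439 were found in GENCODE M21 (GRCm38), and promoters are RefSeq's (GRCm38.p6). limma 3.58.1 in R 4.3.3, with a mean-variance trend, was run on log2(normalized count + 1) of 14828 genes that reached 10 normalized counts in 3 or more libraries. All 28 libraries entered it, with a mean for each group and a batch effect (18 residual degrees of freedom). A gene was called at a Benjamini-Hochberg adjusted p below 0.05. Effects within a batch came from means for each group and batch (10 residual degrees of freedom), and calls in batch 2 alone from its 19 libraries. Alternatives were edgeR 4.0.16 (quasi-likelihood) and DESeq2 1.42.0 on the reads, other filters, pseudocounts and scalings, and left-out libraries. Scripts were tested on simulated data.

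Limits of 3 reads and 95% intervals include counting error alone, because the reads have no molecular identifiers. Within-group pairs at 4 h differed by 6.46 to 51.5 times counting noise (chi-square divided by its degrees of freedom), so each library was kept as a sample. Libraries with the same replicate number in their titles deviated together from their group means (correlations over genes of 0.41, 0.73 and 0.42 for numbers 1, 2 and 3). Number 2 is batch 1 in both groups, so a shared batch enters these values. Within batch 2, treated 1 with untreated 3 gave 0.28 and treated 3 with untreated 1 gave 0.16. The fit with a replicate block took the numbers as pairs, which the titles do not state.

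The comparison, the 38 gene lists and the tests were chosen with earlier results of these data known. Named by rule were all called genes, the 8 of smallest p in each direction among genes at a mean of 100 or more normalized counts in untreated cells (predicted genes and RIKEN clones left out), genes called lower in an alternative, the 4 of smallest p in each test of a difference, up to 4 called members of a list or else the 2 of smallest p, and 18 fixed genes. Of the 8 with lower values in treated cells, 1 is not reported here. Other list members, Mical3 and Gm10800 were named after their values were seen.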

Additional observations from a re-analysis of the deposited data

Results flagged for a closer look

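The exosome effect at 4 h on Relb was larger in batch 2 than in batch 1 by 1.669 on the log2 scale, and that on Nfkbia by 1.374, the 2 genes called by limma's test of the difference between batches. In batch 2 the effect on Nfkbia at 4 h exceeded the mean of 0.5, 2 and 8 h by 0.706, by limma's test of the difference between times. That test was added to those planned. The effect at 8 h, given above, was nearer to that at 4 h than the effects at 0.5 and 2 h were. Batch 1 holds 1 treated and 1 untreated library at 4 h, so the differences between batches rest on replicate 2 of each group.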

How the results depend on the processing

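At 4 h limma called 23 genes, 22 of them low in untreated cells, and 5 members of the gene lists. Without a filter 35 genes were called, 30 higher and 5 lower (34 low in untreated cells). A filter of 50 normalized counts gave 4 (4 low, 2 list members). With genes low in untreated cells left out there were 0 (0 low, 0 list members), and 555 had a limma unadjusted p below 0.05. The 4 h libraries alone with a batch term gave 2 (2 low, 1 list member). Batch 2 alone gave 39 (15 list members), and the replicate block in the 4 h libraries gave 15 (11 low). Leaving out 1 library gave 16 to 24 genes, 16 to 24 of them low in untreated cells, and 4 to 8 list members (8 without treated replicate 2). Without treated replicates 1 and 2, chosen after seeing the data, 16 genes were called (10 low), and without untreated replicate 1 as well 11 (6 low, 3 list members). With fewer genes or libraries in the fit the counts change by construction, and the cause beyond that was not tested. All 23 genes kept a positive change wherever they were tested, and 21 of them lost their call in at least 1 setting. The replicate block also called Dst, Gm10156, Cmtm4 and Rps14 and moved 2 lists' counts past 1.5 times, the podosome list from 1 to 2 with Dst and the CMTM list from 0 to 1 with Cmtm4.

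The mean effect at the other times had 59 calls, 195 without a filter and 16 with a filter of 50. The test of 4 h against the other times gave 0 calls in every setting run, and that between batches 2. Genes that changed sign were never called. Without treated replicates 1 and 2 these were Col3a1 (-0.205), Gzme (-0.0059), Wdr12 (-0.0094) and Il12rb2 (0.045), and without untreated replicate 1 as well Lamp1 (-0.0072), Tyk2 (-0.0017) and Ifng (-0.071). Leaving out 1 library moved Il12rb2 between -0.171 and 0.073, Gzmb between -0.123 and 0.021 and Ifng between -0.027 and 0.282. Depth limits transcripts near 0, since 3 reads are 1.88 to 3.37 normalized counts in these libraries.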
